A study of Mus musculus with 168 samples.

Results

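The cortex of mice heterozygous for the Q140 allele was compared with that of wild-type (WT) mice at 10 months of age. The Q140 allele is a knock-in at the mouse Htt locus with a nominal 140 CAG repeats. The comparison holds 16 cortex libraries, of 56 that the series has at each of 3 ages, with 8 of Q140 and 8 of WT. Each group holds 4 females and 4 males, and the libraries were chosen by the genotype and age in their titles. The series measured polyA RNA of 6 Htt knock-in alleles (Q20, Q80, Q92, Q111, Q140 and Q175, all heterozygous) and WT at 2, 6 and 10 months, with 8 libraries per genotype and age. All mice were C57BL/6, and each knock-in mouse carried its allele in every cell beside a normal copy. The Q140 mice were housed with other Q140 mice, whereas the WT mice were housed with Q20 mice and their library names carry Q20 codes. Allele and housing group therefore cannot be told apart here. Within each group the library names of the females share the same code, and those of the males share another. Sex and code therefore cannot be told apart either, and the spread between codes within a sex was not measured. The labels number the libraries within a group and do not say whether each came from a separate mouse, so p-values measure the spread between these libraries.

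Huntingtin, the product of Htt, is a large scaffold protein used in vesicle transport and in transcription control. An expanded CAG repeat in its first exon lengthens a glutamine tract and causes Huntington's disease, in which striatal projection neurons and the cortical neurons that innervate them are affected. Reduced transcripts of neuronal signalling genes and altered glial and myelin transcripts are commonly described in such brains, with the striatum more affected than the cortex.

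The estimated counts summed to between 30140637 and 42468648 per library. Slc17a7, the vesicular glutamate transporter of cortical excitatory neurons, lay between 929.8 and 1010 CPM (counts scaled to library size) in the Q140 libraries and between 970.7 and 1079 CPM in WT, and the sex-linked transcripts matched the labelled sex in every library of the comparison. Q140 female 3 stood apart. Its median correlation with the other libraries of its age was 0.979, against 0.989 to 0.991 in the other 15, and its long transcripts were low. The median log2 deviation of transcripts of 6899 bases or more minus that of transcripts up to 1438 bases was -0.80 in that library and between -0.13 and 0.12 in the others. Q140 males 2 and 3 had higher levels of a few transcripts described below than the other 14 libraries. Choroid plexus markers varied between libraries in both groups, with a summed level of 48.2 to 2171 CPM in Q140 and 30.7 to 748 CPM in WT. Much of this sum was the transcript Ttr. It was at 424.5 and 748.5 CPM in Q140 males 2 and 3, where the sums were 496.7 and 855.7 CPM. For genes called at 10 months, the values without Q140 female 3 and males 2 and 3 are given beside the main ones where these libraries bear on them. The tests across ages and sexes were not repeated without them.

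Htt itself, at chr5:34761740-34912534 (GRCm38), was at 97.3 CPM in Q140 female 3 and between 156 and 185 CPM in the other 7 Q140 libraries, with a group median of 174 CPM. The WT libraries lay between 184 and 204 CPM, with a median of 195 CPM. The groups overlapped by a narrow margin, since the highest Q140 library was just above the lowest WT library. An exact two-sided permutation test of the mean log2 level, with 12870 arrangements, gave p = 0.000311 and a difference of -0.27. In the fit across all genes the difference in Htt level was -0.24 ± 0.08 (log2, SE) with an adjusted p of 0.293 (edgeR), so it did not pass. Without Q140 female 3 it was -0.16, with an adjusted p of 0.513. The deposited counts do not separate the 2 alleles.

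Of 17219 genes tested, 61 (0.354%) differed between Q140 and WT at an adjusted p under 0.05 by the quasi-likelihood test of edgeR, and such genes are referred to as called. Of these, 35 (0.203%) were higher and 26 (0.151%) lower in Q140. The differences were small. The median size was 0.41 on the log2 scale, 21 of the 61 differed by less than 1.25-fold, and 19 by more than 1.5-fold. The ranges of the 8 Q140 and the 8 WT libraries did not overlap for 13 called genes, against 21 of all genes tested (0.122%). Slc45a3, Cd82, Serpina3n, Enpp6, Enpp1 and Pla2g4a were the 6 that lay wholly above WT, and Otof, Gpr153, Arpp21, Plk5, Nptxr, Gucy2g and Wnt10b were the 7 that lay wholly below. The number called changed with the libraries used. It was 28 without Q140 male 2, 32 without WT female 2, 15 without Q140 males 2 and 3, and 16 without these and Q140 female 3, of which 15 were among the 61. It was 28, with 20 of the 61 among them, when the L token of the library names entered the fit as a term. The meaning of that token is not given in the labels, and the tokens fell unevenly between the groups. Only L2 and L7 occurred in both Q140 and WT, and L8, the most frequent token in WT, occurred in no Q140 library. The fit with the token used all 56 libraries of 10 months. Abhd1, Otof, Slc45a3 and Gpr153 were called in each of the 29 alternative fits.

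**Figure D1:**
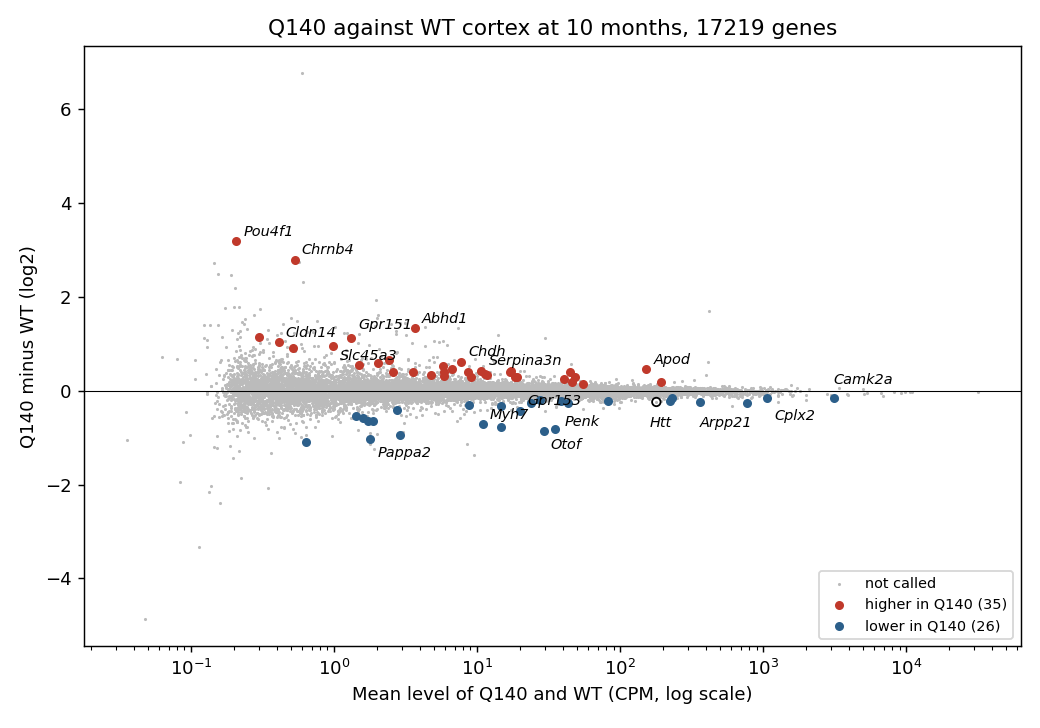
Difference between Q140 and WT at 10 months (log2) against the mean level of the 16 libraries (CPM, log scale), with each point a gene tested. The 35 genes called higher are red, the 26 called lower are blue and the circle marks Htt, which was not called. Every called gene above 100 CPM differed by less than 0.5 on the log2 scale.

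Chdh, which encodes the mitochondrial choline dehydrogenase that starts the conversion of choline to betaine, was among the 3 genes with the smallest p. Its level ran from 7.09 to 11.9 CPM (median 9.39) in Q140 and from 4.99 to 7.65 CPM (median 6.16) in WT. Only the lowest Q140 library, female 3, fell within the WT range. The difference was 0.62 ± 0.09 (log2, SE; 1.54-fold; adjusted p = 3.26e-05, edgeR). The neighbouring gene Il17rb, a receptor subunit for interleukin 17 family cytokines, was also called higher, at 1.07 to 2.19 CPM against 1.03 to 1.76 CPM in WT (0.55 ± 0.13, adjusted p = 0.0224), although the ranges overlapped. Both were still called without Q140 female 3 and males 2 and 3, with adjusted p of 0.000632 for Chdh and 0.0485 for Il17rb. Il17rb was called in 8 of the 16 fits that left out 1 library (adjusted p up to 0.0767) and had an adjusted p of 0.239 with only the 16 libraries in the fit. Il17rb lies on the minus strand at chr14:29996135-30008896 and Chdh on the plus strand at chr14:30009023-30040527 (GRCm38), so the gene ends that face each other are 127 bases apart. Il17rb falls outside the rule for named genes and was singled out after its values were seen. Other called genes with a called neighbour within 500 kb on the same chromosome were Tspan18 and Cd82 (84.6 kb apart, both higher), Slc4a11 and Adam33 (353 kb apart, both lower), and the genes beside Htt described below.

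The RefSeq promoter windows of this pair (GRCm38.p6, from upstream of each annotated start to just inside the gene) are shown because the genes point away from each other and rose together. RefSeq gives Chdh 3 windows, and the one that overlaps the window of Il17rb was chosen. The other two hold no match to the motifs searched. The chosen window of Chdh is chr14:30008750-30009049 on the plus strand and that of Il17rb is chr14:30008847-30009146 on the minus strand, and they share 203 bases. Capitals mark a match to the AP-1 motif TGANTCA, searched on both strands.
Chdh: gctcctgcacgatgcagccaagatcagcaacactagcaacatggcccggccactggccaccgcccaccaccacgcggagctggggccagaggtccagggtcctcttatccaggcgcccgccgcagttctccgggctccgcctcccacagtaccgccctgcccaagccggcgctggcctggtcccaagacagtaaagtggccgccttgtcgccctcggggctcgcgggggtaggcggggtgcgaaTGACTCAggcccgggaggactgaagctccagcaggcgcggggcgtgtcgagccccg
Il17rb: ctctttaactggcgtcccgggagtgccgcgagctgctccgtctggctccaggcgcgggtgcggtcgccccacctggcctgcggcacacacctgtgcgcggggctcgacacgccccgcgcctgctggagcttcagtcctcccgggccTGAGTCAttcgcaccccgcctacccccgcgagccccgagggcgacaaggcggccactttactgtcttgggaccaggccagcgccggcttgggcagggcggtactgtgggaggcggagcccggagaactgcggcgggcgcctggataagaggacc
The match starts at -6 relative to the RefSeq start of Chdh and at -104 relative to that of Il17rb, and both are the same bases, chr14:30008994-30009000. This RefSeq start of Chdh lies upstream of the gene start given above, chr14:30009023. Of 32851 RefSeq windows of this length, 7.81% held such a match. Of the called genes with a window, 2 of 28 higher genes and 2 of 17 lower genes held it in any of their windows. The 2 higher genes are this pair with its shared match, and the lower genes, Arpp21 and Dgat2l6, carried it as well. The share above is of windows and these counts are of genes, some with several windows, so they cannot be compared directly. The CRE, SRE and E-box motifs were searched as well and had no match in the windows of this pair. The match is a description of these letters and was not tested as a binding site.

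Slc45a3, a solute carrier of oligodendrocytes, was at 0.991 to 1.49 CPM (median 1.33) in Q140 and at 0.458 to 0.897 CPM (median 0.613) in WT. All 8 Q140 libraries were above all 8 WT libraries, and the difference was 0.96 ± 0.15 (log2, SE; 1.94-fold; adjusted p = 0.000115, edgeR). Cd82, a tetraspanin that organises receptors in the membrane, was at 17.2 to 26.2 CPM (median 19.2) in Q140 and at 13.7 to 15.7 CPM in WT, again without overlap. Its difference was 0.42 ± 0.07 (adjusted p = 0.000287), and the highest value was that of Q140 female 3. Without that library and Q140 males 2 and 3 the adjusted p was 0.0187 for Cd82 and 0.00274 for Slc45a3. Tspan18, another tetraspanin gene, reached 4.86, 4.96 and 3.58 CPM in Q140 males 2, 3 and 4 but 1.68 to 2.33 CPM in the other 5 Q140 libraries, which overlapped the WT range of 1.38 to 2.15 CPM. Its difference of 0.64 (adjusted p = 0.0411) was 0.33 without Q140 female 3 and males 2 and 3, with an adjusted p of 0.789.

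Several glial transcripts were higher in Q140. Enpp6, a choline phosphodiesterase made by oligodendrocytes as they begin to form myelin, was at 5.21 to 7.89 CPM (median 6.87) against 4.22 to 4.99 CPM (median 4.78), without overlap (0.52 ± 0.12, adjusted p = 0.0186, edgeR). Plpp2, a lipid phosphate phosphatase on the same list, was higher by 0.39 (adjusted p = 0.04). Among 23 tested genes of newly forming oligodendrocytes and precursors, these 2 were called, against 0.354% of all genes tested, and the median difference was -0.02. Apod, a lipid-binding lipocalin, was at 142 to 260 CPM (median 172) in Q140 and 113 to 145 CPM (median 129) in WT. It differed by 0.45 ± 0.09 (adjusted p = 0.0065), with the highest value again in Q140 female 3. Anln, an actin-binding protein that also supports septins in myelin, was at 42.6 to 62.5 CPM against 31.9 to 43.9 CPM (0.41 ± 0.09, adjusted p = 0.0139). Apod and Anln were the called members of the 33 oligodendrocyte and myelin markers, whose median difference was 0.08 against 0.004 over all genes tested. Without Q140 female 3 and males 2 and 3, Anln was still called (adjusted p = 0.0184), whereas the adjusted p was 0.247 for Apod, 0.123 for Enpp6 and 0.321 for Plpp2. With the L token as a term it was 0.0997 for Anln, 0.051 for Apod, 0.019 for Enpp6 and 0.307 for Plpp2.

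Serpina3n, a secreted protease inhibitor made by reactive astrocytes, was at 10.2 to 16.7 CPM (median 11.5) in Q140 and 8.19 to 10.1 CPM (median 9.07) in WT. The ranges did not overlap, and the difference was 0.42 ± 0.07 (adjusted p = 0.0011, edgeR; 0.023 without Q140 female 3 and males 2 and 3). It was the called member of 27 tested genes of reactive gliosis and complement, whose median difference was 0.11. Vim, an intermediate filament of reactive astrocytes, was at 26.2 to 37.3 CPM against 22.7 to 26.5 CPM and was not called (adjusted p = 0.112). The astrocyte list pointed the other way. Of its 25 genes, 21 had a negative difference, 13 had an unadjusted p under 0.05 (11 of them lower), and Plpp3, a phosphatase of lysophospholipids, was called lower, at 204 to 243 CPM (median 214) against 235 to 254 CPM (median 246; -0.17 ± 0.04, adjusted p = 0.0224). Over all genes tested, 7.48% had an unadjusted p under 0.05. Plpp3 was called in 10 of the 16 fits that left out 1 library, and its adjusted p was 0.0743 with the L token as a term, 0.0998 with only the 16 libraries in the fit and 0.0166 without Q140 female 3 and males 2 and 3. DESeq2 called Mfge8, Fads1 and Fads2 of that list as well. The 23 tested microglia markers had no called member with edgeR, none with an unadjusted p under 0.05 and none called with DESeq2, and their median difference was 0.02. In these bulk libraries, fewer cells of a type and less RNA per cell cannot be told apart.

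**Figure D2:**
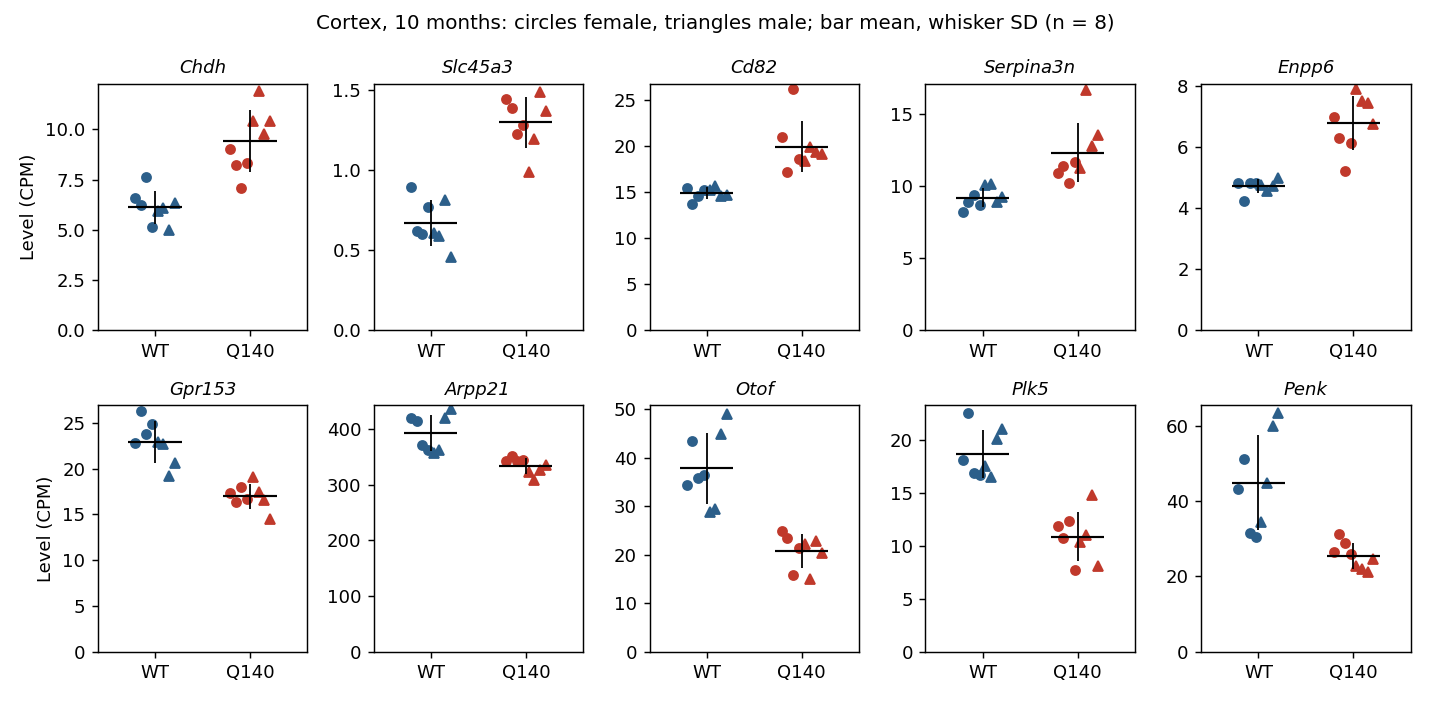
Level (CPM) of 5 genes higher and 5 genes lower in Q140, with each point a library (circles female, triangles male), the bar the mean and the whisker the SD of 8 libraries. Slc45a3, Cd82, Serpina3n and Enpp6 lay wholly above WT and Gpr153, Arpp21, Otof and Plk5 wholly below, whereas Chdh and Penk overlapped.

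Further genes called higher by the rule were Abca8a, a lipid transporter of the ABC family (12.7 to 16.4 CPM in WT, 16.4 to 23.6 CPM in Q140, 0.40 ± 0.07), Prkcq, the protein kinase C theta (0.36 ± 0.07), and Gng11, a G protein gamma subunit (0.40 ± 0.08). Cldn14, a tight junction claudin, was at 0.384 to 0.852 CPM in Q140 and 0.124 to 0.450 CPM in WT, and differed by 1.03 ± 0.21 (adjusted p = 0.00796, edgeR). Iah1, an esterase, differed by 0.32 ± 0.07, with its highest value in Q140 female 3. Of these 5, only Abca8a was still called without Q140 female 3 and males 2 and 3 (adjusted p = 0.00157).

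The genes called lower included several with high levels in cortical neurons. Arpp21, a cAMP-regulated RNA-binding phosphoprotein, was at 308 to 352 CPM (median 339) in Q140 and at 357 to 436 CPM (median 393) in WT. All Q140 libraries were below all WT libraries, and the difference was -0.23 ± 0.04 (log2, SE; adjusted p = 0.000491, edgeR). Nptxr, the neuronal pentraxin receptor that helps to gather AMPA receptors, was at 635 to 746 CPM (median 724) against a median of 838 CPM in WT, also without overlap (-0.26 ± 0.06, adjusted p = 0.0139). Camk2a, the calcium- and calmodulin-dependent kinase of excitatory synapses, was at 2664 to 3247 CPM (median 2903) against 3032 to 3469 CPM (median 3297; -0.16 ± 0.04, adjusted p = 0.0318), and 5 of 8 Q140 libraries lay below the WT range. Cplx2, a complexin that clamps synaptic vesicle fusion, was at 914 to 1091 CPM against 1074 to 1199 CPM (-0.16 ± 0.03, adjusted p = 0.0186). Gsg1l, an auxiliary subunit of AMPA receptors, was at 66.6 to 84.6 CPM against 81.0 to 99.1 CPM (-0.23 ± 0.05, adjusted p = 0.00876). Rasgrf2, a calcium-regulated activator of Ras and a marker of upper cortical layers, was at 174 to 235 CPM against 221 to 254 CPM (-0.21 ± 0.04, adjusted p = 0.0133). The last 4 overlapped WT. With the L token as a term, Arpp21 (adjusted p = 0.019) and Gsg1l (0.0279) were still called. In that fit the adjusted p was 0.125 for Nptxr, 0.15 for Camk2a, 0.281 for Cplx2 and 0.0731 for Rasgrf2. Camk2a was called in 6 of the 16 fits that left out 1 library. With only the 16 libraries in the fit, the adjusted p of Arpp21 was 0.0501. Without Q140 female 3 and males 2 and 3, Arpp21 was still called (adjusted p = 0.0191), and the adjusted p of the other 5 was 0.225 for Nptxr, 0.563 for Camk2a, 0.38 for Cplx2, 0.265 for Gsg1l and 0.378 for Rasgrf2.

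Gpr153, an orphan receptor, was at 14.4 to 19.1 CPM in Q140 and at 19.2 to 26.3 CPM (median 22.9) in WT, without overlap (-0.43 ± 0.07, adjusted p = 0.000179, edgeR). Plk5, a polo-like kinase family member of the brain, was at 7.72 to 14.9 CPM (median 10.9) against 16.5 to 22.5 CPM (median 17.8), also without overlap (-0.78 ± 0.15, adjusted p = 0.00299). Myh7, a myosin heavy chain best known from heart and slow muscle, was at 5.85 to 11.5 CPM against 11.1 to 17.1 CPM (-0.71 ± 0.13, adjusted p = 0.00139). Both were still called without Q140 female 3 and males 2 and 3 (adjusted p of 0.00581 and 0.0184), as was Gpr153 (0.00274), but with the L token as a term the adjusted p was 0.125 for Plk5 and 0.0577 for Myh7. Gpr83, a G protein-coupled receptor, differed by -0.27 ± 0.05, and Dgat2l6, an acyltransferase gene, by -0.64 ± 0.13. The low-level genes Pappa2, a protease of IGF-binding proteins, and Atp6v1c2, a subunit of the vacuolar proton pump, differed by -1.03 ± 0.21 and -1.09 ± 0.23. Atp6v1c2 was at 0.237 to 0.695 CPM in Q140 and from 0.525 CPM upwards in WT, and 3 of 8 WT libraries lay below the highest Q140 library. With the L token as a term the adjusted p was 0.0715 for Gpr83, 0.24 for Pappa2 and 0.251 for Atp6v1c2. It was, with Q140 female 3 and males 2 and 3 left out, 0.0688 for Gpr83, 0.0655 for Dgat2l6, 0.179 for Pappa2 and 0.175 for Atp6v1c2.

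Striatal projection neuron markers, fixed as a list because striatum borders the dissected cortex, had 2 called members of 26, Arpp21 and Penk, both lower, against 0.151% called lower among all genes tested. Penk, the precursor of enkephalin, was at 21.1 to 31.2 CPM (median 25.3) in Q140 and 30.5 to 63.4 CPM (median 44.1) in WT (-0.82 ± 0.18, adjusted p = 0.0186, edgeR). The highest Q140 library was above the lowest WT library. Of the 26 genes, 23 had a negative difference and the median was -0.20, and Ppp1r1b (DARPP-32, the dopamine-regulated phosphatase inhibitor), Drd1 (a dopamine receptor) and Rxrg (a retinoid receptor) differed by -0.24, -0.30 and -0.57 without being called. The summed level of the list was 1284 to 1507 CPM in Q140 (median 1401) and 1456 to 1718 CPM in WT (median 1538), so the groups overlapped, and Q140 males 2 and 3 were the lowest of the 16. Arpp21 is also made by cortical neurons, and the part of striatal tissue in these differences was not tested. The median over the list was -0.01 in females and -0.38 in males. Penk differed by -0.48 in females and -1.16 in males, and the difference between the sexes did not pass (adjusted p = 0.913). Without Q140 female 3 and males 2 and 3 the Penk difference was -0.76, with an adjusted p of 0.225. With the L token as a term, the adjusted p of Penk was 0.166.

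The transcripts Chrnb4, Pou4f1 and Gpr151, called higher, were highest in Q140 males 2 and 3. Chrnb4, a nicotinic acetylcholine receptor subunit, was at 2.04 and 4.30 CPM in these and at 0.033 to 0.523 CPM in the other 14 libraries. Pou4f1, a POU transcription factor, was at 1.55 and 1.15 CPM against at most 0.112 CPM, and Gpr151, an orphan receptor, at 5.26 and 4.39 CPM against at most 1.29 CPM. These genes are known as markers of the habenula, a nucleus beside the thalamus, and were grouped after their values were seen. Chrna3 (2.66 and 2.81 CPM against at most 0.480 CPM) and Lhx9 (3.97 and 3.96 CPM against at most 1.59 CPM), not called, were high in the same libraries. Slc17a6 (49.8 and 39.5 CPM against at most 35.45 CPM) and Prkcd (20.3 and 15.7 CPM against at most 11.15 CPM) were also above the other 14. So were Calb2 (17.2 and 14.5 CPM against at most 13.1 CPM) and Lrrc55 (25.2 and 25.5 CPM against at most 23.5 CPM). None of these was called. Some other genes known from the habenula were not above the other 14 in both libraries. Nwd2 (57.2 and 62.0 CPM against 42.6 to 68.2 CPM) and Nr4a2 (48.2 and 53.5 CPM against 40.7 to 62.6 CPM) lay within the range of the others. Tac2 was above their highest value of 8.74 CPM in male 2 (9.02 CPM) and below it in male 3 (7.45 CPM). Without Q140 female 3 and males 2 and 3 the differences were 0.14 for Chrnb4, 0.64 for Pou4f1 and 0.10 for Gpr151, with adjusted p of 0.986, 0.956 and 0.973.

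**Figure D3:**
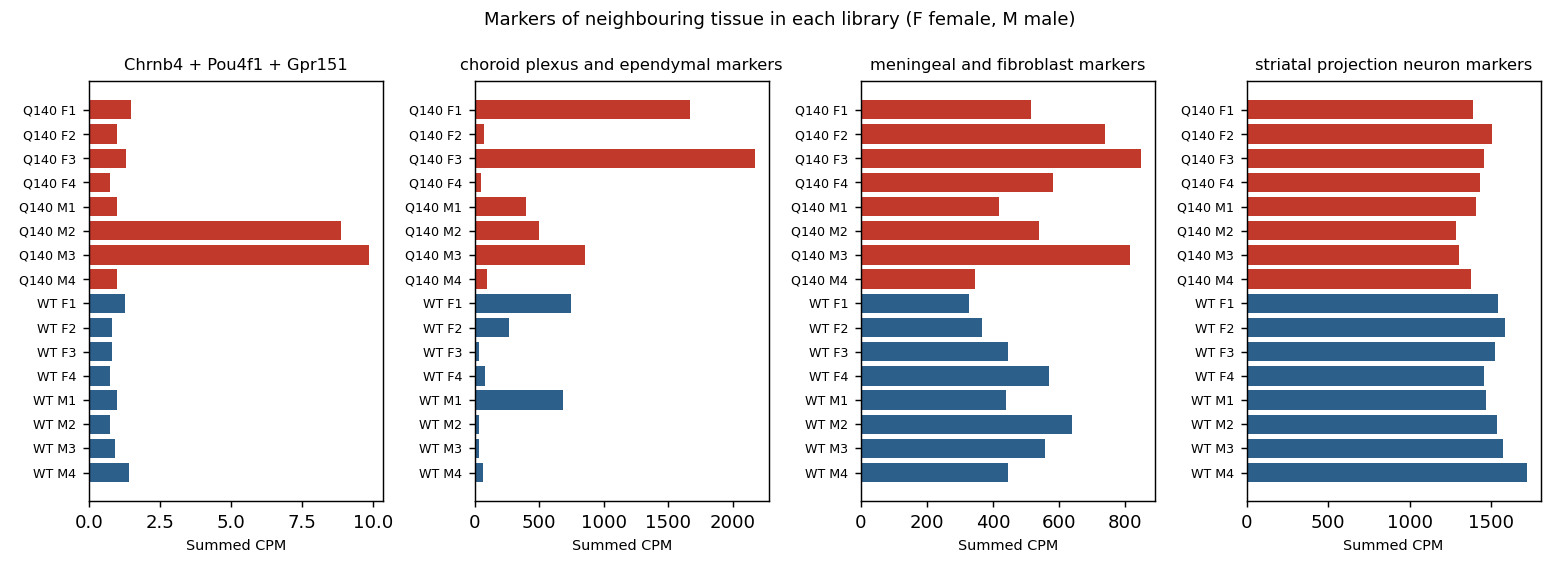
Summed level (CPM) in each of the 16 libraries of Chrnb4, Pou4f1 and Gpr151, of the choroid plexus and ependymal list, of the meningeal list and of the striatal list, with Q140 in red and WT in blue. The 3 habenula transcripts stand out in Q140 males 2 and 3. The choroid plexus sum, much of it Ttr, reaches 2171 CPM in Q140 female 3, and the striatal sums overlap between 1456 and 1507 CPM.

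There were 3 called genes that start within 5 Mb of Htt on chromosome 5, of 120 tested there (2.5%, against 0.354% of all genes). Abhd1, an alpha/beta hydrolase, lies at chr5:30950066-30955091. It was at 4.51 to 5.85 CPM in Q140 and at 1.32 to 1.98 CPM in 7 WT libraries, and at 4.87 CPM in WT male 3, which was within the Q140 range. The difference was 1.34 ± 0.19 (adjusted p = 3.26e-05, edgeR). The Q20 libraries of the same age had 4.72 to 5.81 CPM, and Q20 against WT was 1.33 ± 0.19 (adjusted p = 5.53e-05), the only called gene of that comparison (0.00581% of 17219). Q140 against Q20 was 0.001 for Abhd1. Atraid, at chr5:31048312-31054623, was at 35.3 to 50.5 CPM in Q140, where female 3 was the highest, and at 43.2 to 49.7 CPM in WT (-0.26 ± 0.06, adjusted p = 0.0158; -0.32 and 0.00437 without Q140 female 3 and males 2 and 3). Its difference was -0.24 for Q20 against WT and -0.03 for Q140 against Q20. The Abhd1 difference from WT at 10 months was 1.35 in Q80, 1.31 in Q92, 1.26 in Q111 and 0.81 in Q175. At 2 and 6 months Abhd1 had medians of 5.56 and 5.15 CPM in Q140 and 2.09 and 1.87 CPM in WT, although the highest WT library of 2 months reached 7.09 CPM. Some knock-in groups had a lowest library near the WT medians. It was at 1.72 and 1.78 CPM in Q20 at 2 and 6 months, and at 1.76 CPM in Q175 at 10 months.

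Otof, at chr5:30367062-30461932, encodes otoferlin, a calcium sensor for vesicle release. It was at 15.1 to 24.9 CPM (median 21.8) in Q140 and at 28.8 to 49.1 CPM (median 36.1) in WT, without overlap (-0.87 ± 0.12, adjusted p = 3.26e-05, edgeR). Unlike Abhd1, Otof differed by -0.42 for Q20 against WT and by -0.45 for Q140 against Q20, neither of which was called. Galnt11, an O-glycan transferase on the same chromosome but outside the window, was higher by 0.24 (adjusted p = 0.0346). The deposited counts do not show which flanking sequence each knock-in line carries, and the part of linked sequence was not tested.

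**Figure D4:**
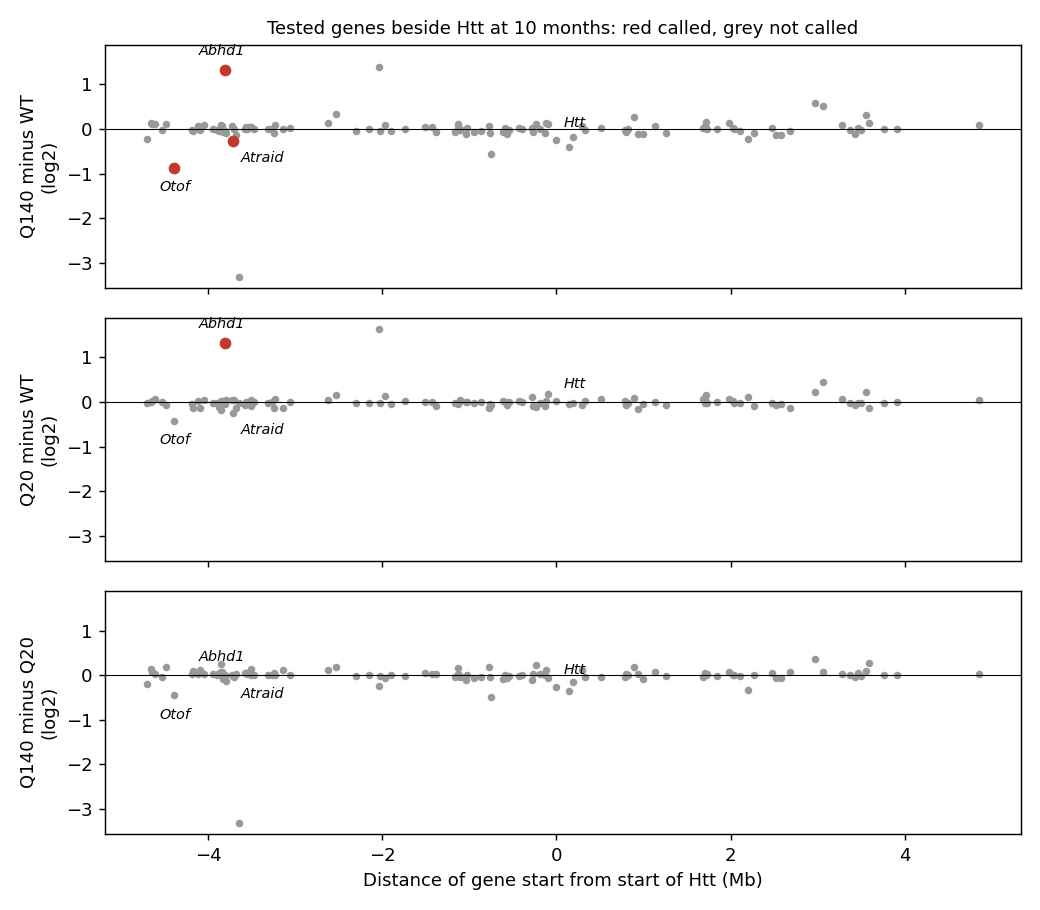
Difference (log2) of the tested genes that start within 5 Mb of Htt at 10 months, against the distance of the gene start from that of Htt (Mb), for Q140 minus WT, Q20 minus WT and Q140 minus Q20. Called genes are red: Abhd1, Otof and Atraid in the first panel, Abhd1 alone in the second and none in the third.

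Of 42 gene lists of cell types and pathways, 13 had a called member and none had more than 2. The upper cortical layer markers (16 tested) had a median of -0.08 with Rasgrf2 called lower. The 29 glutamate receptors and partners had 26 negative differences, a median of -0.06 and Gsg1l called. The 36 genes of cAMP and calcium signalling had a median of -0.03 and Camk2a called, and the 27 of synaptic vesicle machinery had a median of -0.04 and Cplx2 called. Chdh was the called member of 27 genes of choline, serine and one-carbon metabolism, whose median was 0.02. In the remaining 29 lists edgeR called none of 692 genes, of which 70 had an unadjusted p under 0.05, against 7.48% of all genes tested. DESeq2 called Gabrd, Kcnj16 and Shox2 in 3 of them. These lists include deep layer and interneuron markers (medians 0.03 and -0.04), immediate early genes (0.12), chaperones (0.03), the unfolded protein response (0.04), mismatch repair genes (-0.02), chromatin regulators (0.008) and the mitochondrially encoded transcripts (-0.04, all 13 negative). The immediate early genes had a median of -0.13 in females and 0.40 in males, and none had an unadjusted p under 0.05. The choroid plexus list had the highest median, 1.2, with all 19 genes positive, and Q20 against WT gave a median of 1.19 for the same list. The meningeal list had a median of 0.38 with all 15 genes positive. None of either was called.

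**Figure D5:**
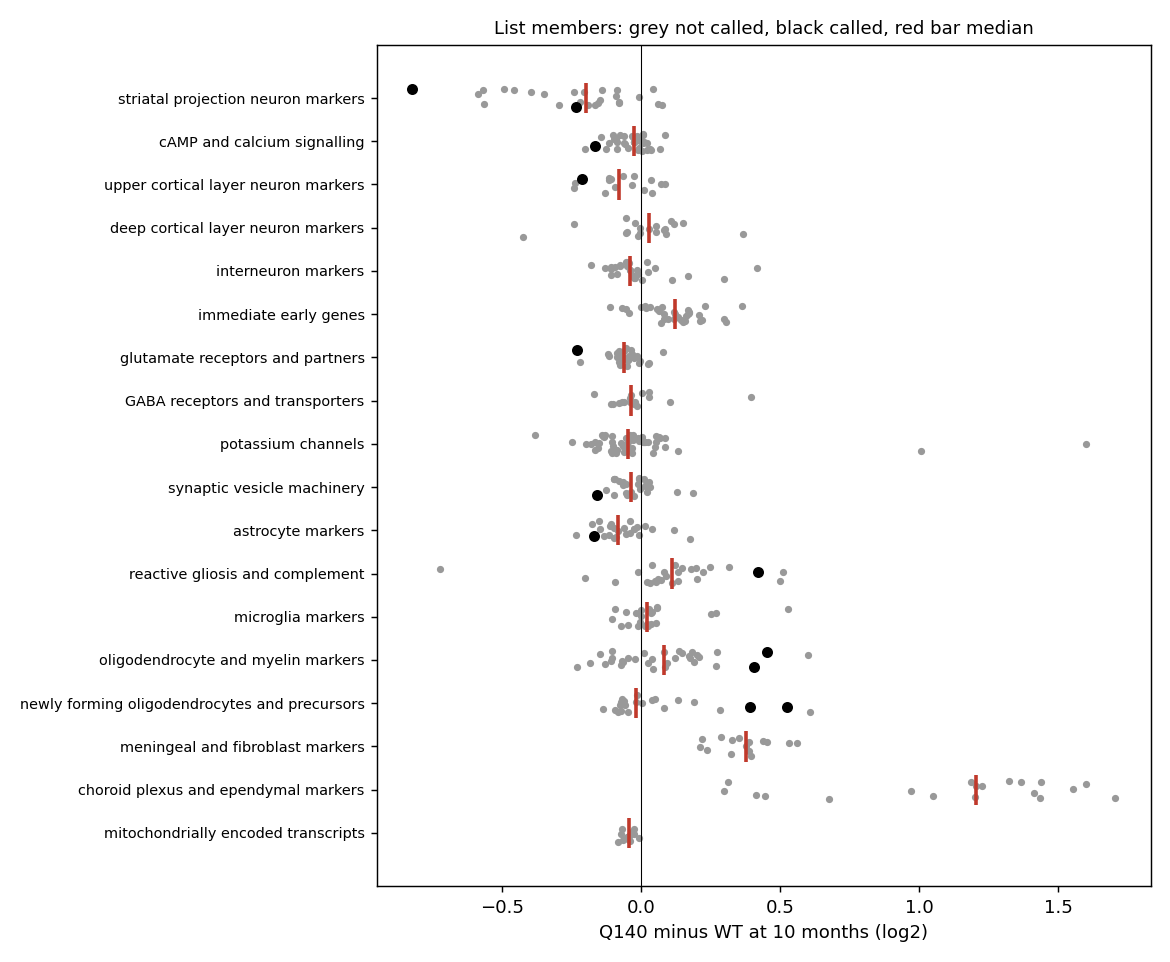
Difference between Q140 and WT at 10 months (log2) of the members of selected gene lists, with each point a gene, called genes in black and the median of a list as a red bar. Called genes are few in every list, and the medians of most lists lie near 0, whereas those of the choroid plexus (1.2) and meningeal (0.38) lists do not.

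Both sexes showed the direction of the joint fit for each of the 61 called genes. This is in part set by the choice of genes from the joint fit. Chdh differed by 0.35 in females and 0.87 in males, Abhd1 by 1.84 and 0.93, Apod by 0.63 and 0.27, and Gpr153 by -0.52 and -0.34. No gene passed the test of the difference between the sexes with edgeR (0% of 17219). An unadjusted p under 0.05 was found for 874 genes, and DESeq2 called 1. Within Q140 and within WT, females and males carry different codes in their library names. Sex and code therefore cannot be told apart in these values.

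Younger mice of the same genotypes, which share no library with those above, were compared in the same way. At 2 months edgeR called no gene, 901 had an unadjusted p under 0.05, and DESeq2 called 5. At 6 months 6014 of 17611 genes (34.1%) were called. At that age Q20 against WT also gave 5512 calls, while Q140 against Q20 gave 404. The WT libraries of 6 months differed from knock-ins with a short as well as a long repeat. These WT libraries carry names of the form used at 2 and 10 months, whereas every knock-in library of 6 months carries another form. What the form stands for is not given in the labels. Allele and form of library name therefore cannot be told apart in comparisons with WT at 6 months. Of the 60 genes called at 10 months that were tested at 6 months, 26 were called there in the same direction, a share that is to be read against the 34.1% called among all genes tested, and 45 had the same sign. At 2 months 46 of 60 had the same sign. The share of all genes tested with the same sign at both ages was not computed, so neither count of signs can be set against a background.

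Some of the leading genes were already different at 6 months. Chdh was at 7.32 to 10.2 CPM in Q140, 5.17 to 6.82 CPM in WT and 5.52 to 7.31 CPM in Q20, so Q140 did not overlap either group. Its differences were 0.45 against WT (adjusted p = 1.53e-06, edgeR) and 0.41 against Q20 (adjusted p = 8.12e-05). Slc45a3 differed by 0.75 against WT and 0.56 against Q20, Enpp6 by 0.32 and 0.48, Arpp21 by -0.11 in both, and Penk by -0.43 and -0.53, and all of these passed. Otof differed by -0.04 and -0.03 at 6 months, and neither passed. Mean levels of Penk and Otof were lower at 10 than at 6 months in every genotype, WT and Q20 included. In WT, Penk had a mean of 112.8 CPM at 6 months (46.5 to 148.6 CPM) and 44.9 CPM at 10 months. Otof had a mean of 51.7 CPM in WT at 6 months and 37.8 CPM at 10 months. The cause of these shifts was not tested. Tested as an interaction in a fit of all ages, the Q140 difference of Otof at 10 months minus that at 6 months was -0.83 (adjusted p = 7.97e-05), and 2092 genes (11.6% of 17981) passed that test. It uses the WT libraries of 6 months, so the form of library name cannot be told apart from the allele there. Against 2 months, Serpina3n was the only gene that passed, with a change in the Q140 difference of 0.56 ± 0.10 (adjusted p = 0.0046), from -0.14 at 2 months. DESeq2 called 38 genes in that test.

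The other alleles of 10 months were measured against the same WT libraries, so their values are given side by side. Chdh had a mean of 6.12 ± 0.84 CPM (SD, n = 8) in WT, 6.72 ± 0.59 in Q20, 7.14 ± 0.87 in Q80, 7.51 ± 0.84 in Q92, 7.89 ± 1.2 in Q111, 9.41 ± 1.54 in Q140 and 9.89 ± 0.33 in Q175. Each group differed from the next in this order by less than the larger of their SDs, Q111 and Q140 included. Slc45a3 was at 0.670 ± 0.144 CPM in WT, 0.738 ± 0.177 in Q20, 0.728 ± 0.252 in Q80, 0.747 ± 0.105 in Q92, 1.01 ± 0.11 in Q111, 1.30 ± 0.16 in Q140 and 1.46 ± 0.25 in Q175. Arpp21 lay between 382 and 393 CPM on average in WT, Q20, Q80, Q92 and Q111, at 334 ± 14.2 CPM in Q140 and at 306 ± 9.87 CPM in Q175. Plk5 was at 18.7 ± 2.3 CPM in WT, 15.5 to 16.2 CPM on average in Q20 to Q111, 10.9 ± 2.3 CPM in Q140 and 4.97 ± 1.11 CPM in Q175. Cd82 was the reverse in order at the top, with 20.0 ± 2.8 CPM in Q140 and 18.1 ± 0.9 CPM in Q175, a gap within the Q140 spread.

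Q140 against Q20 at 10 months, which shares the Q140 libraries, called 22 genes (0.128% of 17219), 13 higher and 9 lower. Chdh (0.48), Slc45a3 (0.82), Arpp21 (-0.21), Enpp6 (0.61), Cldn14 (1.06), Il17rb (0.64), Gpr153 (-0.34), Gpr83 (-0.24), Cd82 (0.32), Gng11 (0.36), Plpp2 (0.42) and Apod (0.40) passed in that comparison. Otof (-0.45, adjusted p = 0.181), Plk5 (-0.58, adjusted p = 0.098), Penk (-0.65, adjusted p = 0.178), Serpina3n (0.29, adjusted p = 0.111) and Nptxr (-0.16, adjusted p = 0.538) did not. Q140 and Q20 mice were housed apart too, so allele and housing cannot be told apart in this comparison either.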

How the data were processed

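PolyA RNA of cortex was sequenced by the authors on HiSeq instruments, per the labels' protocols, and reads were handled with CASAVA 1.8.2, per the submitters' processing notes. The sources used here do not name the aligner, the quantifier or the genome build. The deposited table of estimated counts per gene holds values of which 17.9% were not whole in these libraries, as gene-level estimates by the authors, and these were rounded. The deposited FPKM values, scaled by the authors for length and depth, served as an alternative. Of 39179 gene IDs, 37607 had a GENCODE M21 (GRCm38) symbol. 

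Genes were kept by filterByExpr (minimum count 10, minimum total 15), scaled by TMM and fitted with edgeR 4.0.16 (quasi-likelihood, robust) in R 4.3.3 over the 56 libraries of 10 months with genotype and sex as terms, with Benjamini-Hochberg adjustment and a threshold of 0.05. Every adjusted p in the text is from this test unless another tool is named. Levels are TMM-scaled CPM. Other ages were fitted in the same way, and age interactions over all ages. The fits were tested on simulated data. Alternatives were DESeq2 1.42.0, its size factors, no filter, no sex term, a replicate block, the L token, only the 16 libraries, limma 3.58.1 on log2(FPKM + 0.1) or log2(FPKM + 1), leaving out libraries with a median correlation under 0.99, and leaving out each library. Leaving out libraries under 0.985, Q140 males 2 and 3, or these with Q140 female 3 was chosen after seeing the data.

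Named genes were the 12 rising and 12 falling with the smallest p among those called (clone names left out), up to 4 called members of each list, Htt, called genes within 5 Mb of it, and the leading genes of the interactions. The members and lists were chosen with earlier results of these data known. No replicates were duplicates, since 56 pairs within groups differed by at least 4.47 chi-square per degree of freedom. Promoter windows came from RefSeq (GRCm38.p6), and 45 called genes matched one. The range of the total counts per library is given above. 1 gene that met the rule is not reported here.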

Additional observations from a re-analysis of the deposited data

Results flagged for a closer look

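In 14 of 124 groups of 8 libraries, formed by the 61 called genes and Htt in Q140 and in WT, the highest or lowest library lay far from the rest. The cutoff is met in about 1 in 20 groups of independent, normally distributed values. These groups reuse the same libraries and hold genes chosen as called, so the 14 cannot be set against that rate. Q140 female 3 was the library far from the rest for Cd82 (26.17 CPM), Apod (260.4 CPM), Atraid (50.45 CPM), Iah1 (8.557 CPM), Nde1 (26.66 CPM), Anxa5 (60.32 CPM) and Htt (97.29 CPM). The others were Abhd1 in WT male 3 (4.868 CPM), Dgat2l6 in WT male 1 (1.656 CPM), Atp6v1c2 in Q140 female 4 (0.6945 CPM), Stard8 in WT male 3 (34.49 CPM), Chrnb4 in Q140 male 3 (4.3 CPM), Il17rb in WT female 1 (1.764 CPM) and Anxa5 in WT female 3 (47.69 CPM).

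The Q140 difference of the called genes below was not the same at 10 as at 6 months by the edgeR interaction test, which 11.6% of all genes passed. The difference at 10 minus that at 6 months (log2) was negative for Otof (-0.8315), Gpr153 (-0.4143), Myh7 (-0.8303), Plk5 (-0.8073), Gsg1l (-0.3237), Pappa2 (-0.9404), Atp6v1c2 (-1.037), Gucy2g (-0.3605), Cplx2 (-0.142), Adam33 (-0.3423) and Lrig1 (-0.2573). It was positive for Apod (0.4618), Iah1 (0.3405), Dcdc2a (0.3124), Carhsp1 (0.2153), Chrnb4 (3.441), Pou4f1 (3.167), Olfml2b (0.465), Fgf1 (0.1539), Nudt4 (0.3172), Tspan18 (0.5551) and Gpr151 (1.14). Q20 against WT at 6 months also had 5512 calls. At 6 months the WT libraries carry another form of library name than all knock-in libraries. The part of that difference in these values therefore cannot be told apart from that of the allele. These tests were not repeated without Q140 female 3 and males 2 and 3, in which Apod (female 3) and Chrnb4, Pou4f1, Gpr151 and Tspan18 (males 2 and 3) were high. Against 2 months, Serpina3n differed by 0.5614.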

How the results depend on the processing

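The number of calls Q140 against WT at 10 months was 61, and it became 102 with DESeq2, which kept all 61, 28 with the L token as a term, 21 with only the 16 libraries, 16 without libraries under a median correlation of 0.99, 15 without Q140 males 2 and 3, and 16 without these and Q140 female 3. Leaving out each library gave 28 to 72 calls at 10 months, 5509 to 6123 at 6 months and 0 to 2 at 2 months, and an Htt difference of -0.2721 to -0.1573. With a replicate block the 10 month count was 72, with 57 of the 61 among them. Same-numbered libraries correlated between -0.114 and 0.0945 in their deviations and 2 of 8 best with their own number, so the numbers were not taken as pairs. DESeq2 called 5 genes at 2 months, 38 in the test of 10 against 2 months, and 1 in the test of the sexes. Gpr151 turned to -0.01944 without libraries under 0.99. The cause of these changes was not tested. Leaving out libraries under 0.99 could not be run at 6 months or for 10 against 6 months, since a group had no library left, and single libraries were not left out of the interaction tests. Of the 61 genes, 23 were called whichever single library of the comparison was left out.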
